A study of Mus musculus with 15 samples.

Results

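Collagen, laminin and integrin genes encode the fibres and sheets of the extracellular matrix and the receptors through which cells hold on to them. They were taken from the expression tables of a study of the arginine methyltransferase PRMT1 in CT26, a mouse colon carcinoma cell line grown in culture. A gene was a member when its symbol followed the naming pattern of collagen chains (Col), laminin chains (Lama, Lamb, Lamc) or integrin chains (Itga, Itgb), or when it was Fn1, Sparc, Lox, Loxl2 or Thbs1. The rule used names only and no measured value. It found 86 members among 34432 listed genes: 44 collagen chains, 26 integrin chains, 11 laminin chains and the 5 genes named singly. In the knockdown experiment 3 shControl libraries were compared with 3 shPrmt1 libraries, in which a doxycycline-inducible hairpin against Prmt1 had been switched on for 3 days. Whether shControl cells also received doxycycline is not stated in the labels. In the inhibitor experiment wild-type CT26 cells were given vehicle or 6 µM of MS023 or of GSK3368715, which both inhibit type I arginine methyltransferases, for 48 h, with 3 libraries in each group. The series describes the libraries of a group as biological replicates, and all of them come from 1 cell line.

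Collagens are built from 3 chains wound into a triple helix. Fibrillar collagens such as type I form rope-like fibrils, and network-forming collagens such as type IV make up the mesh of basement membranes. Laminins are cross-shaped trimers of an alpha, a beta and a gamma chain, and a trimer is exported only when its chains have assembled. Integrins are pairs of an alpha and a beta chain that span the cell membrane and link matrix proteins to the actin skeleton. Fibronectin (Fn1), SPARC and thrombospondin-1 (Thbs1) are secreted glycoproteins that bind these fibres and receptors, and lysyl oxidases (Lox, Loxl2) cross-link collagen and elastin. Tumour cells of epithelial origin are known to express more of these genes when they take on mesenchymal features.

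Counts assigned to genes ran from 17284091 to 29233738 per library in the knockdown experiment and from 40119305 to 93697833 in the inhibitor experiment. As a check of the labels, Prmt1 was read at 5601, 5717 and 5620.1 normalized counts in shControl libraries and at 669, 761 and 683 in shPrmt1 libraries, a log2 fold change of -3.0 ± 0.07 (SE; adjusted p = 3.8e-07). Under MS023 and GSK3368715 the Prmt1 transcript differed from vehicle by -0.07 ± 0.06 and -0.01 ± 0.06 on the log2 scale (adjusted p = 0.35 and 0.91). Among 13 epithelial markers, Epcam, Cldn3, Cldn4 and Cldn7 had no read in any library and Cdh1 stayed below 2 normalized counts in every group mean, while Krt18 reached a mean of 572 in shControl and 941 in vehicle libraries. Among 14 fibroblast and mesenchymal markers, Vim, S100a4 and Cdh2 were high, with Vim at 68130.4 and 196573, while Thy1 and Fbln1 had no read and Acta2 reached at most 1.65. The adhesion and junction markers that define colon epithelium were thus at or near 0, while Krt18 and Krt20 were read in every group and Cdx2, Lgals4 and Krt8 at group means of at most 33.9. The endothelial markers summed to between 11.2 and 67.5 normalized counts per library and the leukocyte markers to between 30.9 and 291. Most of the leukocyte sum was Cd68, at means of 36.7 in shControl and 230 in vehicle libraries, while Cd3e was at 0 throughout.

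Promoters are shown for the members that rose in the knockdown and with at least 1 inhibitor and that have an entry among the RefSeq promoter sequences (assembly GRCm38.p6), together with Sparc, which changed in opposite directions. Of the 86 members, 59 matched an entry. Each run holds the 250 bases before the start of the RefSeq entry, on the strand of the gene, with matches to 8 searched motifs in capitals. That start can differ from the gene boundary in GENCODE. The Lama2 and Sparc runs lie wholly inside the GENCODE genes, which reach to 27619758 and 55423183, and the Col6a1 and Itgb7 runs lie partly inside theirs. The Col6a1 run lies at chr10:76726045-76726294 and that of Lama2 at chr10:27616943-27617192, both on the minus strand. The Itgb5 run lies at chr16:33829415-33829664 on the plus strand. The Itgb7 run lies at chr15:102231936-102232185 and that of Sparc at chr11:55420081-55420330, both on the minus strand.
Col6a1: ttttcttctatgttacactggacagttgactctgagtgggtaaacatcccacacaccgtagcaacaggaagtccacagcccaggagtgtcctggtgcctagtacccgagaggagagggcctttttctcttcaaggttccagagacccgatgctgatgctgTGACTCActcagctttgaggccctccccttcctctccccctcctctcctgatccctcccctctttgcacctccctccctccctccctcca
Lama2: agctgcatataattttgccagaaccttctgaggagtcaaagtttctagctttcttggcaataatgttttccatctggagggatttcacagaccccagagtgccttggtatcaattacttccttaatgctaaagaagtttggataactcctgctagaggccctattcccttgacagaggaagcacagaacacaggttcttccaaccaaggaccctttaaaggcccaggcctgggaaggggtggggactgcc
Itgb5: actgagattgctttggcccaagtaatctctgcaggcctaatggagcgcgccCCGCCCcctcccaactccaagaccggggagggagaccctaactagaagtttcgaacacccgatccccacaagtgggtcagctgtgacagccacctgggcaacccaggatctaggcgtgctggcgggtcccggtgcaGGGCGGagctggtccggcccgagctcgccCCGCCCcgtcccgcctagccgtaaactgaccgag
Itgb7: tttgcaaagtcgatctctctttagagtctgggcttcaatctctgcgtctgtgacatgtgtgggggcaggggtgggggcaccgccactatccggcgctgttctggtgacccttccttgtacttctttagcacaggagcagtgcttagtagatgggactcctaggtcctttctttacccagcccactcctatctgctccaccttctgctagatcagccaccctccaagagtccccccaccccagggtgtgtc
Sparc: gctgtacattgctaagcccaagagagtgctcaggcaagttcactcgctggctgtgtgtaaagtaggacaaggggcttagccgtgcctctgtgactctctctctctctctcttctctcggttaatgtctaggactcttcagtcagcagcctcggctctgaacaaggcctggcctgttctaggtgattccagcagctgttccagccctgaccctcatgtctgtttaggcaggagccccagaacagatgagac

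The motifs were searched on both strands as TATAAA (a core promoter box), CCAAT (bound by NF-Y), GGGCGG (GC box), TGANTCA (AP-1 site), GGAATG (TEAD site), CACGTG (E-box), TTCNNNGAA (STAT site) and the core of the interferon-stimulated response element. In the Col6a1 run the capitals mark an AP-1 match that ends 84 bases before the start, and since these letters read the same on both strands it counts as 1 site. AP-1 matches were found in 6.75% of all 32851 promoters of the same length and in 2 of the 65 promoters of members. The Itgb5 run holds 3 GC boxes, a motif present in 32.7% of all promoters and in 31 of the 65 promoters of members (47.7%). The Lama2, Itgb7 and Sparc runs hold none of the 8 letter patterns. No motif was shared by the 4 members shown that rose.

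The members were uneven in level. Compared per kb of the longest annotated coding transcript, the chain alpha 2 of collagen I (Col1a2) had the highest level in both control groups, at 6269 ± 389.6 normalized counts per kb in shControl and 22790.1 ± 217 in vehicle libraries (mean ± SD, n = 3). It was followed by Itgb1, the beta chain shared by most matrix-binding integrins, at 4676 ± 121 and 13228 ± 875 per kb. Their order depends on the length used: per kb of all merged exons Itgb1 averaged 4371 and 12366, above Col1a2 at 2698 and 9809. Levels are compared within an experiment, because the tables of the 2 experiments were normalized separately.

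In shControl libraries the next levels were those of Sparc (2342 ± 79.1 per kb), Itga6 (1638 ± 47.7), Fn1 (1326 ± 35.9), Lamb1 (1129.9 ± 34.1), Lamc1 (1040.2 ± 11.1) and Col4a1 (989 ± 94.7). Lamc1 and Col4a1 overlapped between libraries, while the members from Col1a2 down to Lamc1 did not overlap with their neighbours in this order. In vehicle libraries Fn1 (9044 ± 1164 per kb) and Sparc (8768 ± 313) overlapped, as did Lamb1, Col4a1, Col1a1, Lamc1 and Itga6, which lay between 3101 and 3444. Members read at high levels included collagen I and IV, laminin chains beta 1 and gamma 1, integrins alpha 3, alpha 6, alpha v and beta 1, fibronectin and SPARC. The list is not complete: per kb, Itgav was 0.81, 1.45 and 1.17 times Itgb5 in vehicle and 2.06, 2.15 and 2.25 times in shControl libraries. Of the other classes, the fibril-associated collagens were led by Col16a1 (235 ± 9.98 and 1519.6 ± 109 per kb in shControl and vehicle) and the leukocyte integrin alpha chains stayed below 3 per kb. Lox had no read in any knockdown library and at most 1.25 normalized counts in an inhibitor library.

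**Figure D1:**
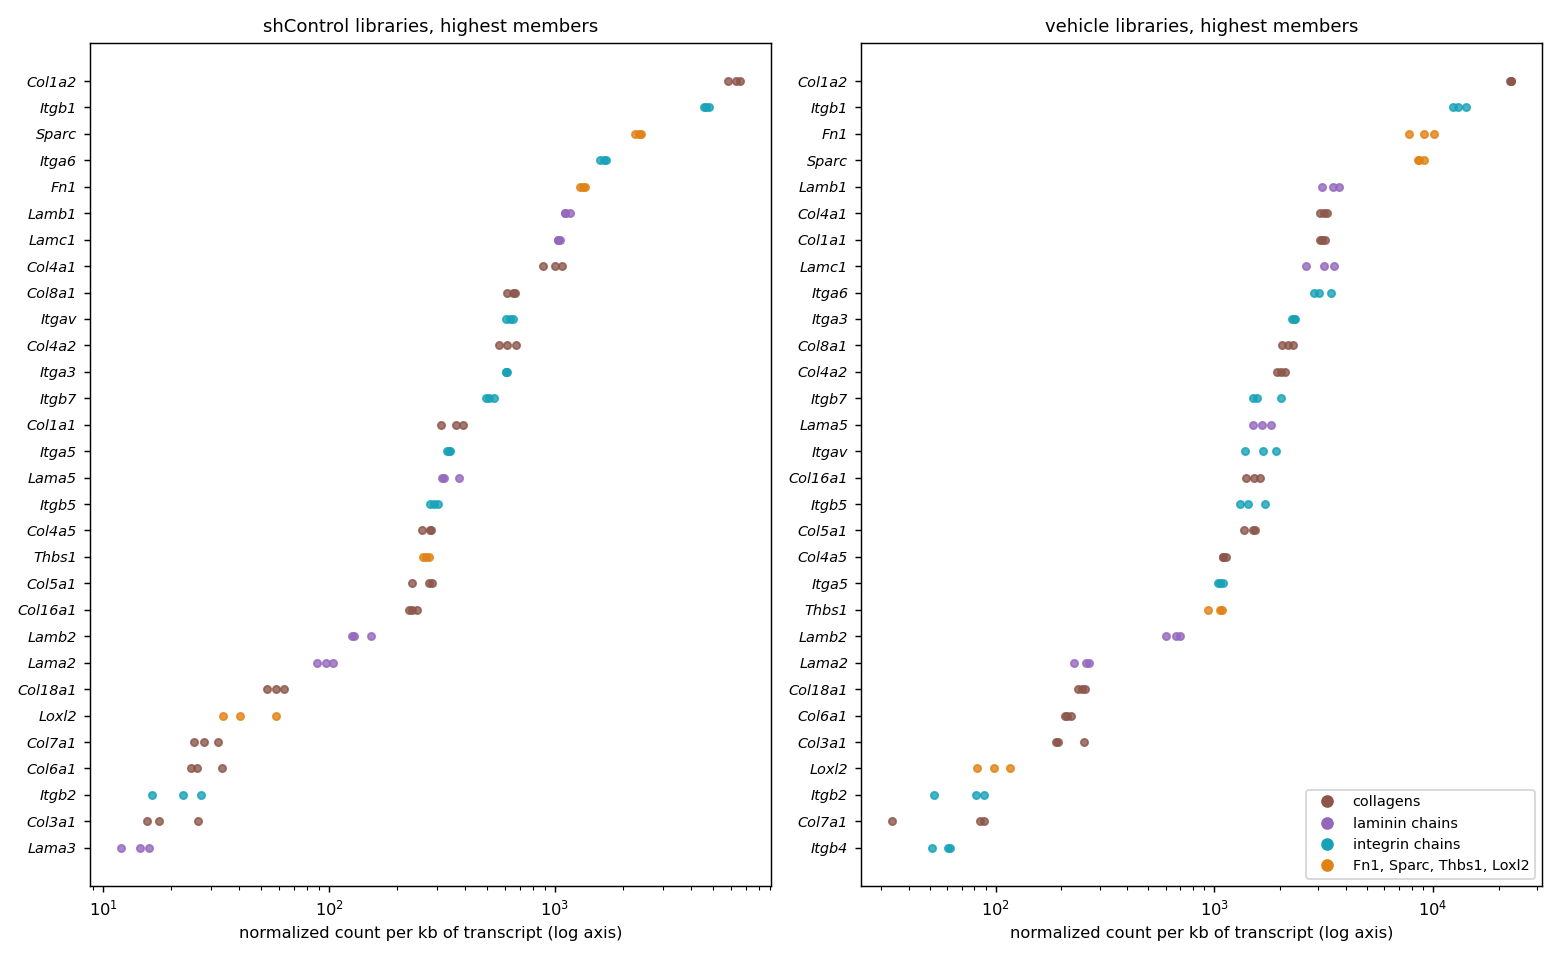
Levels of the highest members reported in shControl libraries (left) and vehicle libraries (right), as normalized counts per kb of transcript on a log axis, with 1 point per library and colours for collagens, laminin chains, integrin chains and other members. Col1a2 and Itgb1 lead in both panels.

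Of the 86 members, 40 reached 10 normalized counts in 3 or more libraries of the knockdown experiment and so were tested, and 54 in the inhibitor experiment, the 40 being among the 54. Of all 34432 listed genes, 11485 and 13014 were tested in the same order. The 32 members below the filter in both included Itgb3, Col2a1, Col4a6, Lama1, Lama4 and Lox. No member outside the filter exceeded 26.7 normalized counts in any knockdown library or 21.3 in any inhibitor library. All tests below used limma on log2(normalized count + 1) across every gene that passed, with Benjamini-Hochberg adjustment, and a gene was called at an adjusted p under 0.05. Fold changes are on that scale and understate the change of low genes.

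In the knockdown 12 of 40 members were called, 10 higher and 2 lower, against 14.7% of all 11485 genes tested (7.5% higher and 7.17% lower). Their median log2 fold change was 0.17, and that of all genes tested was 0.00. With MS023, 16 of 54 members were called, 8 higher and 8 lower, against 27.9% of all 13014 genes tested (13.7% higher and 14.1% lower), so the share of members (29.6%) was near the background. That split became 11 higher and 5 lower with equal library totals and 8 higher and 5 lower with an equal upper quartile. With GSK3368715, 5 of 54 members were called, 4 higher and 1 lower, which at 9.26% was also near the background of 9.64% (5.16% higher and 4.47% lower). By edgeR and DESeq2 the backgrounds were 14.9% and 18.7% in the knockdown, 27.8% and 30.9% with MS023, and 9.54% and 13.8% with GSK3368715. The medians over members were 0.04 and 0.07, and 0.00 over all genes in both. Non-overlapping groups were seen for 19 of 40 members in the knockdown (background 38.0%), for 29 of 54 with MS023 (background 44.5%) and for 12 of 54 with GSK3368715 (background 27.7%). The 2 inhibitors were compared with the same vehicle libraries, so their values are set side by side without a measure of likeness.

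**Figure D2:**
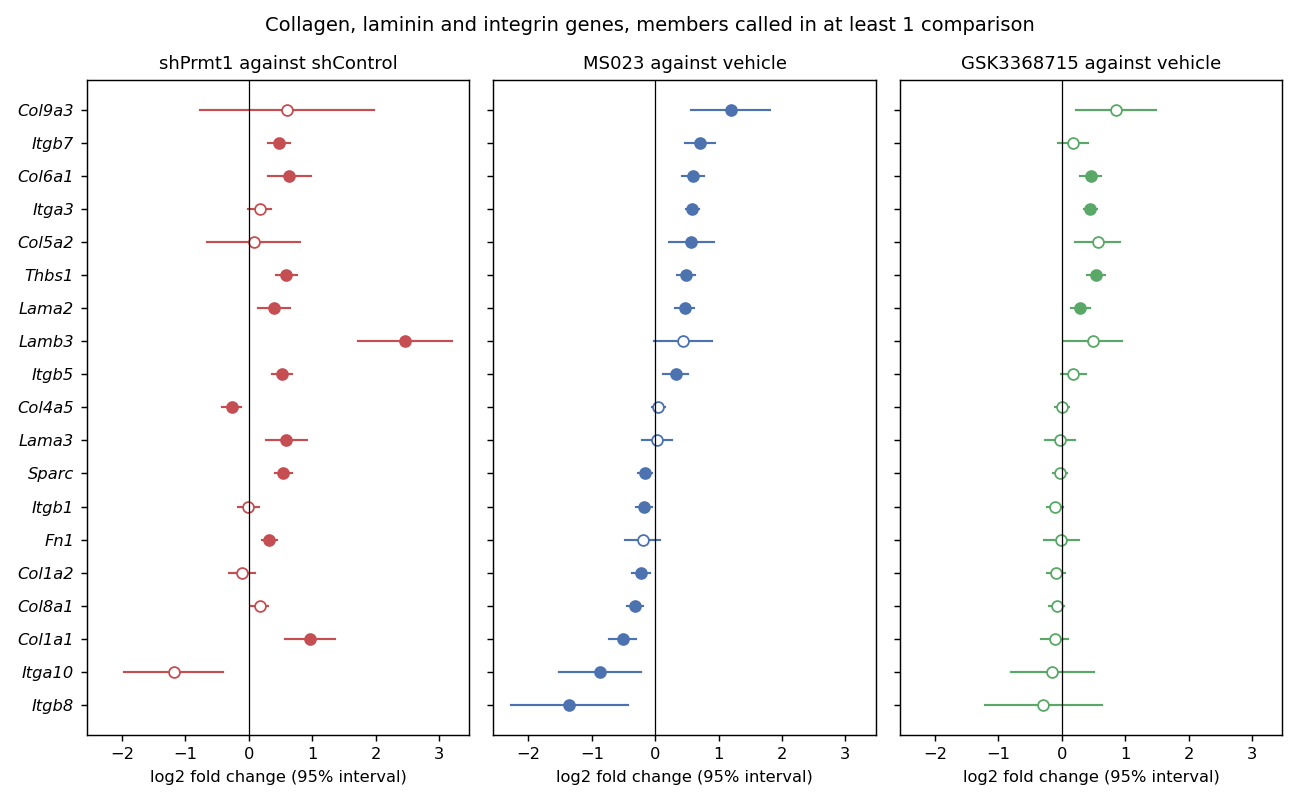
Log2 fold changes of members called in at least 1 comparison, with 95% intervals, for shPrmt1 against shControl, MS023 against vehicle and GSK3368715 against vehicle. Filled points passed the test and open points did not, Itgb8 was below the filter in the knockdown experiment, and Lamb3 in the knockdown stands farthest from 0 at 2.47.

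Thbs1, Col6a1 and Lama2 rose in all 3 comparisons. Thbs1 encodes thrombospondin-1, a secreted glycoprotein that binds CD47 and integrins and lies at chromosome 2, 118111876 to 118127133, plus strand. It was read at 1518, 1619.9 and 1568 normalized counts in shControl and 2247, 2572 and 2302 in shPrmt1 libraries. Vehicle libraries held 5492, 6371 and 6199, MS023 libraries 7884, 8588 and 8738 and GSK3368715 libraries 8621, 8950.0 and 8750.4. Every treated library was above every one of its controls. The log2 fold changes were 0.60 ± 0.07 in the knockdown, 0.48 ± 0.06 with MS023 and 0.55 ± 0.06 with GSK3368715 (adjusted p = 0.0015, 0.00051 and 0.001). These calls were kept under each alternative fit tried, that is with another pseudocount, filter, scaling or model and with each library left out in turn. When a log2 change of 1 or more in size was also required, the calls of Thbs1, Col6a1 and Lama2 were all dropped, and those left among the members were Lamb3 in the knockdown and Col9a3 and Itgb8 with MS023.

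Col6a1 encodes the alpha 1 chain of collagen VI, which forms beaded filaments around cells, and lies at chromosome 10, 76708792 to 76726168, minus strand. The knockdown libraries held 107, 101 and 138 in shControl and 165, 184 and 187 in shPrmt1. With vehicle, MS023 and GSK3368715 it stood at 871, 912 and 851, then 1205, 1368 and 1420.2, then 1170.1, 1168 and 1273. The groups did not overlap in any of the 3 comparisons. The log2 fold changes were 0.64 ± 0.15, 0.60 ± 0.08 and 0.45 ± 0.08 (adjusted p = 0.025, 0.00043 and 0.0063). The other chains with which it assembles were nearly absent. Col6a2 stayed below 17 normalized counts in every library and Col6a3 below 16, so neither was tested in the knockdown, and Col6a2 gave 0.05 ± 0.41 and 0.13 ± 0.41 in the inhibitor experiment (adjusted p = 0.95 and 0.88). The knockdown call of Col6a1 was lost without shControl replicate 1 (0.59, adjusted p = 0.101), without shControl replicate 2 (0.55, adjusted p = 0.089) or without shPrmt1 replicate 3 (0.61, adjusted p = 0.074).

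Lama2 encodes the alpha 2 chain of the laminins of muscle and nerve basement membranes and lies at chromosome 10, 26980036 to 27619758, minus strand. It stood at 849.6, 996 and 937 in shControl and at 1107, 1428 and 1159.5 in shPrmt1 libraries. In the inhibitor experiment vehicle libraries held 2189, 2567 and 2492, MS023 libraries 3180.3, 3476 and 3309 and GSK3368715 libraries 3029, 2881 and 2921. All treated libraries were above all of their controls. The log2 fold changes were 0.40 ± 0.11, 0.46 ± 0.07 and 0.29 ± 0.07 (adjusted p = 0.043, 0.00087 and 0.025). With MS023 the call was kept under each alternative fit. The knockdown call was lost without any of the 3 shControl replicates or shPrmt1 replicate 3 (0.34 to 0.46, adjusted p = 0.071 to 0.16) and without the mean-variance trend. The GSK3368715 call was lost without vehicle replicate 1 or 3 or any GSK3368715 replicate (0.22 to 0.31, adjusted p = 0.050 to 0.079) and with only the 2 groups fitted (0.29, adjusted p = 0.066).

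**Figure D3:**
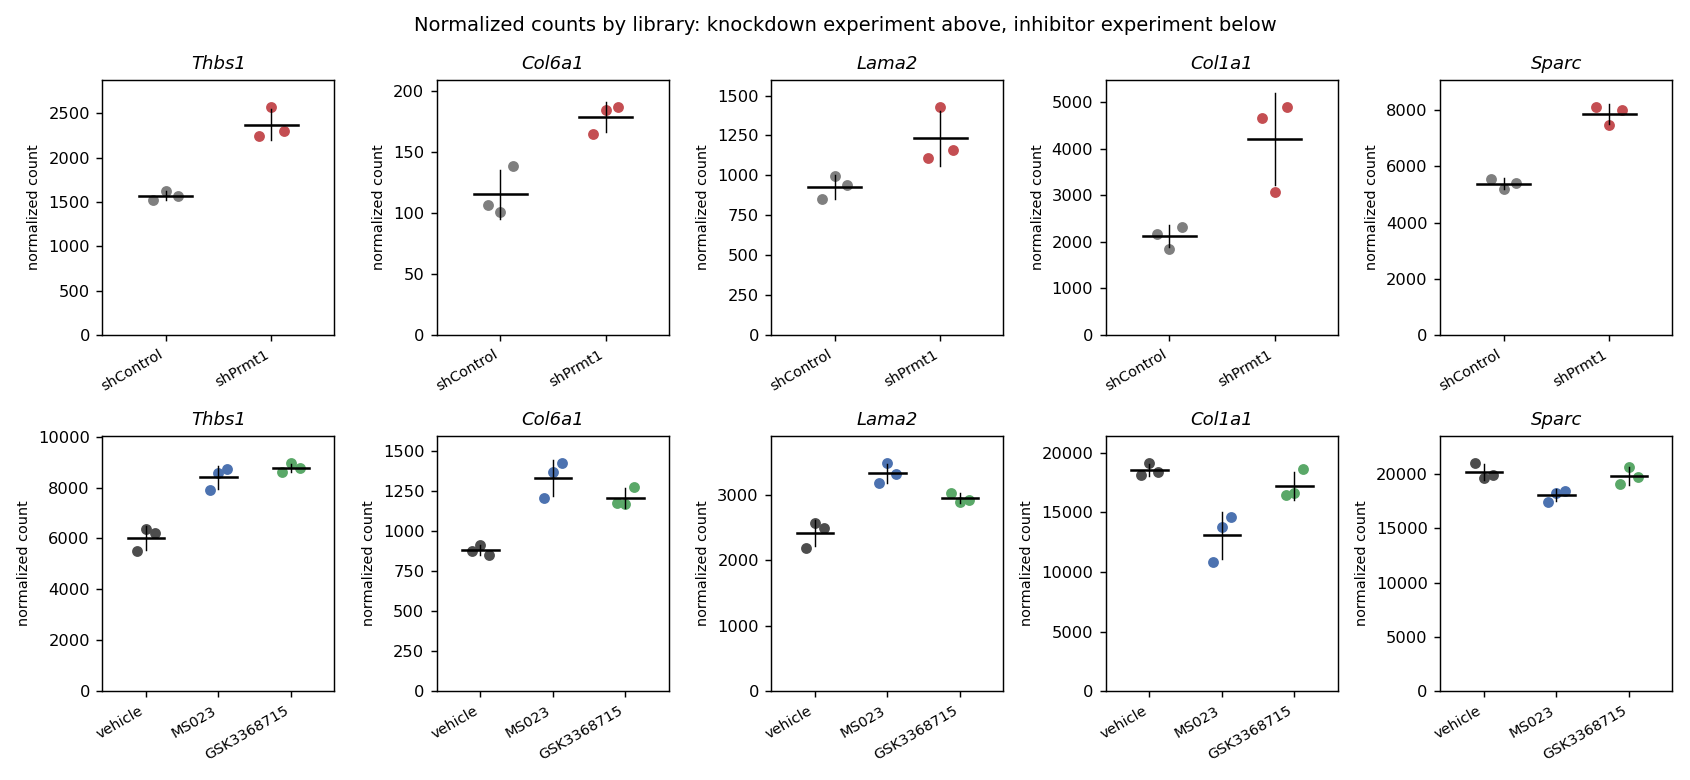
Normalized counts by library for Thbs1, Col6a1, Lama2, Col1a1 and Sparc, with the knockdown experiment in the upper row and the inhibitor experiment in the lower row. Points are libraries, horizontal bars are means, vertical bars are SD (n = 3) and axes start at 0. Col1a1 and Sparc are higher in shPrmt1 than in shControl libraries and lower in MS023 than in vehicle libraries.

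Col1a1 and Sparc were called in opposite directions in the knockdown and with MS023. Col1a1 encodes the alpha 1 chain of collagen I, 2 of which join 1 alpha 2 chain in the usual trimer, and lies at chromosome 11, 94936224 to 94953042, plus strand. It was read at 2174, 1853 and 2321 in shControl and 4664, 3067 and 4890.2 in shPrmt1 libraries, a log2 fold change of 0.97 ± 0.17 (adjusted p = 0.0082). The lowest shPrmt1 library, replicate 2, was still above the highest shControl library. Vehicle libraries held 18109, 19117 and 18403, MS023 libraries 10864, 13765 and 14583 and GSK3368715 libraries 16479, 16589 and 18615. All MS023 libraries were below all vehicle libraries (-0.52 ± 0.10, adjusted p = 0.0032), while GSK3368715 and vehicle libraries overlapped (-0.11 ± 0.10, adjusted p = 0.53). The knockdown and MS023 calls were kept under each alternative fit.

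Sparc encodes a collagen-binding glycoprotein and lies at chromosome 11, 55394500 to 55423183, minus strand. It stood at 5548, 5190.2 and 5424 in shControl and 8109, 7468 and 8011 in shPrmt1 libraries (0.54 ± 0.06, adjusted p = 0.00091). The shPrmt1 libraries lay clear above the range of shControl. The inhibitor experiment gave 20984, 19628 and 19887 with vehicle, 17407, 18253 and 18434 with MS023 and 19079.8, 20655 and 19719.6 with GSK3368715. MS023 libraries were all lower than vehicle libraries (-0.16 ± 0.05, adjusted p = 0.038) and GSK3368715 libraries overlapped with them (-0.03 ± 0.05, adjusted p = 0.80). The knockdown call was kept under each alternative fit, and the MS023 call was lost under 11 of them, among these equal library totals (-0.13, adjusted p = 0.090), an equal upper quartile (-0.14, adjusted p = 0.076) and the fits without MS023 replicates 1, 2 or 3 (-0.14 to -0.18, adjusted p = 0.068 to 0.12).

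Fn1, the gene of fibronectin, rose in the knockdown from 11328, 11029.8 and 10731 to 14072, 13607 and 13807 normalized counts, without overlap (0.33 ± 0.05, adjusted p = 0.005). In the inhibitor experiment its values were 65075, 84359 and 76175 with vehicle, 54518, 71054 and 71239.6 with MS023 and 66714, 74015 and 82752 with GSK3368715. These groups overlapped, and the fold changes did not pass the test (-0.20 ± 0.12 and -0.01 ± 0.12, adjusted p = 0.26 and 0.97). Loxl2, a lysyl oxidase, gave 311, 180.0 and 213 in shControl and 166, 161 and 185 in shPrmt1 libraries (-0.42 ± 0.19, adjusted p = 0.17). With vehicle, MS023 and GSK3368715 it was at 526 ± 92.7, 450.0 ± 25.3 and 439 ± 18.0 (mean ± SD, n = 3), with fold changes of -0.21 ± 0.12 and -0.25 ± 0.12 that did not pass.

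Among the 11 fibrillar collagens, 7 were tested in the knockdown and only Col1a1 was called, while with MS023 1 of 8 rose (Col5a2) and 2 fell (Col1a1 and Col1a2), and none of 8 was called with GSK3368715 by limma or edgeR. At an unadjusted p under 0.05 there were 2 of 8 with GSK3368715, against 26.1% of all genes tested. DESeq2 called 2, Col5a2 and Col11a2, against 13.8% of all genes. By limma 14.7%, 27.9% and 9.64% of all genes were called in the knockdown, with MS023 and with GSK3368715. Col1a2, the partner of Col1a1, gave 33849, 31299 and 35428 in shControl and 32201, 27087 and 34164 in shPrmt1 libraries, which overlapped (-0.11 ± 0.09, adjusted p = 0.44). With vehicle it stood at 122503, 120545 and 122596, with MS023 at 95504, 106496 and 111974 and with GSK3368715 at 111309, 113592 and 118005. The MS023 libraries were all below vehicle (-0.22 ± 0.06, adjusted p = 0.025), a call lost with no filter on low values and without vehicle replicate 3 or MS023 replicate 1 or 2 (-0.16 to -0.24, adjusted p = 0.062 to 0.093), and GSK3368715 gave -0.09 ± 0.06 (adjusted p = 0.40).

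The ratio of Col1a2 to Col1a1 per kb within a library does not depend on the scaling of libraries. It was 17.3, 18.7 and 16.9 in shControl and 7.66, 9.79 and 7.75 in shPrmt1 libraries, 7.50, 6.99 and 7.39 with vehicle and 9.75, 8.58 and 8.51 with MS023. The transcript of the alpha 2 chain was thus in excess in every library, by less in shPrmt1 than in shControl libraries and by more with MS023 than with vehicle. The size of the excess depends on the length used, since per kb of all merged exons, a length tried after the data were seen, the ratio ran from 8.06 to 8.92 in shControl, 3.65 to 4.67 in shPrmt1, 3.33 to 3.57 in vehicle and 4.06 to 4.64 in MS023 libraries. Per kb of the longest coding transcript, as above, the ratio with GSK3368715 was 7.49, 7.59 and 7.03, overlapping with vehicle. In an exact two-sided permutation test the first and second differences gave p = 0.1, the smallest that 3 against 3 allows, and 0.165 after Benjamini-Hochberg adjustment over 33 ratio comparisons.

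Col5a2, a chain of collagen V that sits inside collagen I fibrils, rose with MS023 from 112, 80.1 and 118 to 144, 152 and 161 (0.57 ± 0.16, adjusted p = 0.022) and stood at 158, 156 and 141 with GSK3368715 (0.56 ± 0.16, adjusted p = 0.050). Its MS023 call was lost with no filter on low values and without vehicle replicate 2 or MS023 replicate 2 or 3 (0.40 to 0.57, adjusted p = 0.051 to 0.078). Its partner Col5a1, at 12711, 11520.0 and 12980.0 with vehicle and 9684, 11260.2 and 11818 with MS023, did not pass (-0.19 ± 0.08, adjusted p = 0.089). Col3a1, which forms fibrils with collagen I, was at 87.2, 97.9 and 146 in shControl and 338, 152 and 145 in shPrmt1 libraries, with replicate 1 far above the other shPrmt1 libraries (0.85 ± 0.33, adjusted p = 0.12). DESeq2 called Col3a1 there (0.95, adjusted p = 0.030). Without shPrmt1 replicate 2, limma called Col5a1 in the knockdown (0.34, adjusted p = 0.023).

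The major chains of collagen IV, the mesh of basement membranes, are Col4a1 and Col4a2. Col4a1 was at 6658, 5868 and 7105 in shControl and 5985, 4449.6 and 6112 in shPrmt1 libraries (-0.26 ± 0.13, 95% interval -0.55 to 0.03), and Col4a2 gave -0.03 ± 0.16 (95% interval -0.40 to 0.33). With MS023 the intervals ran from -0.22 to 0.08 for Col4a1 and from -0.13 to 0.15 for Col4a2, and with GSK3368715 from -0.22 to 0.08 and from -0.15 to 0.13. None of these passed the test. Col4a5, a minor collagen IV chain, fell in the knockdown from 1830.4, 1693 and 1853 to 1543, 1473 and 1440.2 without overlap (-0.27 ± 0.07, adjusted p = 0.032), a call lost without any shControl replicate or shPrmt1 replicate 3 (-0.25 to -0.31, adjusted p = 0.053 to 0.14) and without the mean-variance trend (-0.27, adjusted p = 0.059). With the inhibitors it gave (0.05 ± 0.05 and 0.00 ± 0.05, adjusted p = 0.49 and 0.99), and its usual partner Col4a6 reached at most 2.91 normalized counts in any library.

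Col8a1, a network-forming collagen of vessel walls and the cornea, fell with MS023 from 10483, 11726 and 11143 to 8582, 9137 and 8902 (-0.32 ± 0.06, adjusted p = 0.0021), a call kept under each alternative fit. With GSK3368715 it was at 10023, 10875 and 10596, overlapping with vehicle (-0.08 ± 0.06, adjusted p = 0.40). In the knockdown it was at 3326, 3140.5 and 3403 in shControl and 3689, 3789 and 3653 in shPrmt1 libraries, higher in every shPrmt1 library without passing the test (0.17 ± 0.06, adjusted p = 0.082). DESeq2 called Col8a1 there (0.18, adjusted p = 0.048). Among the fibril-associated collagens, Col9a3, known from cartilage, rose with MS023 from 79.4, 53.6 and 54.3 to 193, 149.8 and 96.9 (1.19 ± 0.28, adjusted p = 0.011). GSK3368715 libraries held 152, 84.9 and 109, all above vehicle (0.85 ± 0.28, adjusted p = 0.085). DESeq2 called Col9a3 with GSK3368715 (0.90, adjusted p = 0.037). Col9a3 stayed below 27 normalized counts in all knockdown libraries (0.60 ± 0.60, adjusted p = 0.53).

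Col16a1 and Col18a1, the highest fibril-associated and multiplexin collagens, passed no test in the main fit of the 3 comparisons. DESeq2 called Col16a1 with MS023 (-0.21, adjusted p = 0.044), and limma called it in the knockdown without shPrmt1 replicate 2 (0.46, adjusted p = 0.003). Col16a1 gave 0.23 ± 0.17, -0.21 ± 0.08 and -0.06 ± 0.08, and Col18a1, the source of endostatin, gave 0.10 ± 0.14, 0.16 ± 0.06 and 0.14 ± 0.06. Col7a1, which forms the anchoring fibrils of skin, was at 298, 257 and 232 in shControl and 198, 162 and 219 in shPrmt1 libraries (-0.44 ± 0.15, adjusted p = 0.076). Its vehicle libraries were spread, at 822, 310.3 and 781, below the MS023 libraries at 1173, 1037 and 975 (0.86 ± 0.29, adjusted p = 0.050). The knockdown fold changes of the 18 collagens tested ran from -0.73 to 1.52, and of these 2 rose and 1 fell. With MS023, 3 of 24 collagens rose and 3 fell, and with GSK3368715 1 of 24 rose. Of all genes tested, 14.7%, 27.9% and 9.64% were called in the 3 comparisons.

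Among the laminin chains Lama3 and Lamb3, known from epithelial basement membranes, rose in the knockdown. Lamb3, the beta 3 chain, gave the largest log2 fold change of all members called, from 6.16, 12.2 and 13.3 in shControl to 67.4, 48.5 and 66.3 normalized counts in shPrmt1 libraries (2.47 ± 0.32, adjusted p = 0.0022). The gene lies at chromosome 1, 193207699 to 193343878, plus strand. Lama3, the alpha 3 chain, rose from 126, 153 and 168 to 235, 240.0 and 198 (0.59 ± 0.14, adjusted p = 0.028). No shPrmt1 library overlapped with a shControl library for either chain. The call of Lamb3 was kept under each alternative in which it was tested. With a filter of 50 normalized counts it was not tested, since too few libraries reached that level. The call of Lama3 was lost without shControl replicate 1 or 2 or shPrmt1 replicate 1 (0.48 to 0.62, adjusted p = 0.073 to 0.11).

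With the inhibitors Lamb3 was at 46.4, 32.2 and 45.8 with vehicle, 55.0, 64.5 and 49.4 with MS023 and 60.2, 61.2 and 53.5 with GSK3368715, above vehicle in every treated library but short of the test (0.44 ± 0.21 and 0.50 ± 0.21, adjusted p = 0.14 and 0.16). Lama3 gave 0.02 ± 0.11 and -0.03 ± 0.11 with overlapping groups (adjusted p = 0.88 and 0.90).

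**Figure D4:**
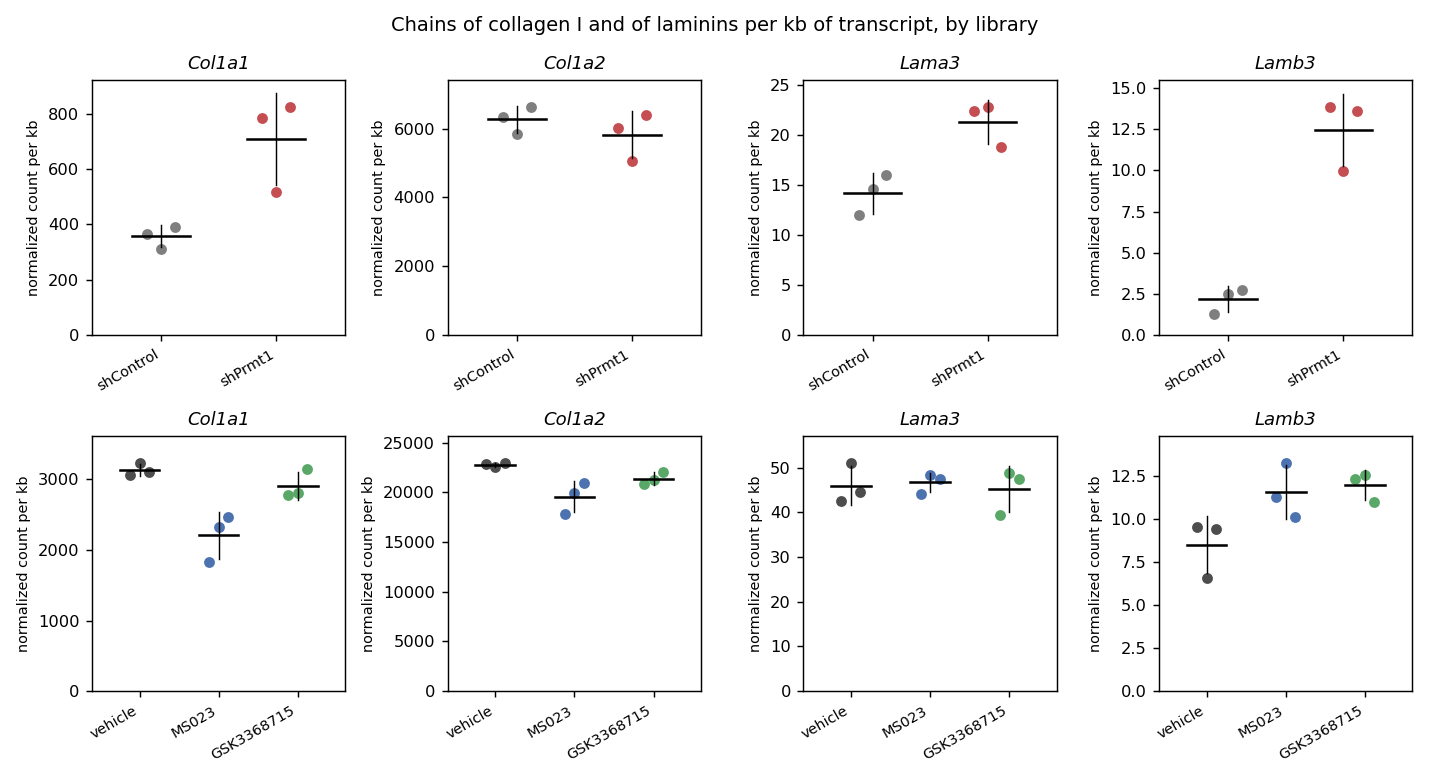
Levels of Col1a1, Col1a2, Lama3 and Lamb3 as normalized counts per kb of transcript, with the knockdown experiment in the upper row and the inhibitor experiment in the lower row, 1 point per library, means as horizontal bars and SD as vertical bars (n = 3). Each panel has its own axis from 0, and Lama3 and Lamb3 are higher in every shPrmt1 library than in any shControl library.

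The chains of the laminins that carry alpha 5, Lama5, Lamb1, Lamb2 and Lamc1, included the highest laminin levels per kb and passed no test in the main fit. DESeq2 called Lamb1 with MS023 (-0.28, adjusted p = 0.022). Lamb1 was at 6762, 6428 and 6415 in shControl and 5893, 5936 and 6228 in shPrmt1 libraries (-0.12 ± 0.06, adjusted p = 0.18), and Lamc1 at 8024, 7897 and 7865 and 7589, 7622 and 7715 (-0.05 ± 0.05, adjusted p = 0.50). Both were lower in every shPrmt1 library by small amounts. With MS023, Lamb1 gave -0.29 ± 0.10 (adjusted p = 0.051) and Lamc1 -0.25 ± 0.10 (adjusted p = 0.10), and with GSK3368715 -0.07 ± 0.10 and -0.08 ± 0.10. Lama5 gave 0.17 ± 0.09, 0.01 ± 0.09 and 0.10 ± 0.09 in the 3 comparisons.

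Among the integrins, the main fit called only beta chains in the knockdown and both alpha and beta chains with MS023. Itgb7, which pairs with alpha 4 or alpha E, was at 1329, 1374 and 1448 in shControl and 2005, 1765 and 2007 in shPrmt1 libraries (0.47 ± 0.08, adjusted p = 0.0055). With vehicle it stood at 5443, 4061 and 4227, with MS023 at 7340.2, 7062 and 7742 and with GSK3368715 at 4597, 5589 and 5257. It rose with MS023 (0.70 ± 0.11, adjusted p = 0.0011), and GSK3368715 overlapped with vehicle (0.18 ± 0.11, adjusted p = 0.33). Its partners were scarce, with Itga4 at most 42.7 and Itgae at most 16.1 normalized counts in any library.

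Itgb5, which pairs with alpha v to bind vitronectin, was at 961, 998 and 921 in shControl and 1349, 1358 and 1452 in shPrmt1 libraries (0.53 ± 0.07, adjusted p = 0.0022). With vehicle it was at 5590.0, 4329 and 4680.4 and with MS023 at 5856, 5853 and 6472, also a rise (0.32 ± 0.09, adjusted p = 0.021) that was lost without vehicle replicate 2 or 3 or MS023 replicate 3 (0.24 to 0.30, adjusted p = 0.059 to 0.083) and without the mean-variance trend (0.32, adjusted p = 0.051). GSK3368715 gave 0.18 ± 0.09 (adjusted p = 0.24). Its partner Itgav passed no test (0.15 ± 0.09, -0.03 ± 0.11 and 0.01 ± 0.11), and Itgb3, the other well-known partner of alpha v, stayed below 4 normalized counts in every library.

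Itga3, an alpha chain that binds laminins with beta 1 and lies at chromosome 11, 95044474 to 95076801, minus strand, rose with both inhibitors. Vehicle libraries held 11026, 11256 and 11428, MS023 libraries 16812, 16415 and 17391 and GSK3368715 libraries 15322, 15331 and 15444. Every treated library was above every vehicle library (0.59 ± 0.04 and 0.45 ± 0.04, adjusted p = 3.1e-05 and 0.0005), and both calls were kept under each alternative fit. In the knockdown Itga3 was at 2996, 2963 and 2944 in shControl and 3568, 2978 and 3545 in shPrmt1 libraries (0.18 ± 0.08, adjusted p = 0.17). Without shPrmt1 replicate 2, its lowest treated library, it was called at 0.26 (adjusted p = 0.0038).

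Itgb1, the common beta chain, was at 47473, 54068 and 49859 with vehicle, 44508, 44972 and 44306 with MS023 and 44567, 48301 and 47828 with GSK3368715. It fell with MS023 by a small amount (-0.18 ± 0.06, adjusted p = 0.045), and this call was lost under 12 alternative fits, among them equal library totals (-0.14, adjusted p = 0.075), an equal upper quartile (-0.16, adjusted p = 0.053) and the fit without vehicle replicate 2 (-0.13, adjusted p = 0.12). In the knockdown Itgb1 did not pass the test (-0.01 ± 0.07, 95% interval -0.18 to 0.16). Per kb, Itgb1 exceeded Itga3 by 5.49, 6.12 and 5.56 times with vehicle, 3.37, 3.49 and 3.25 times with MS023 and 3.71, 4.01 and 3.95 times with GSK3368715.

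Itga6 and Itga5, which pair with beta 1 to bind laminin and fibronectin, passed no test in the main fit. Itga6 was at 7118, 7226 and 6829 in shControl and 7916, 9042 and 7689 in shPrmt1 libraries (0.22 ± 0.07, adjusted p = 0.079), and gave -0.18 ± 0.07 with MS023 (adjusted p = 0.063). The other beta chain of alpha 6, Itgb4, gave -0.34 ± 0.32, 0.27 ± 0.13 and 0.05 ± 0.13. Itga5 gave 0.16 ± 0.10, 0.01 ± 0.06 and 0.04 ± 0.06. DESeq2 called Itga6 in the knockdown (0.22, adjusted p = 0.043) and with MS023 (-0.19, adjusted p = 0.038). Without shPrmt1 replicate 2, limma called Itga5 (0.29, adjusted p = 0.0051) and Itga6 (0.15, adjusted p = 0.046) in the knockdown.

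Itga10, a collagen-binding alpha chain, was lower with MS023, at 48.1, 65.6 and 42.6 against 101, 77.6 and 107 with vehicle (-0.87 ± 0.29, adjusted p = 0.049), a call lost under 12 alternative fits (-0.74 to -1.05, adjusted p = 0.050 to 0.15). In the knockdown it was at 22.9, 16.6 and 25.4 in shControl and 6.86, 12.1 and 8.17 in shPrmt1 libraries (-1.18 ± 0.34, adjusted p = 0.052). There Itga10 was called by edgeR (-1.24, adjusted p = 0.046) and by limma without shPrmt1 replicate 2 (-1.39, adjusted p = 0.026). Its exons share 1739 bases on the same strand with Gm42957, which averaged 5.39 normalized counts in the inhibitor experiment, so the division of reads between them is uncertain. Itgb8, a low member named after its values were seen, was at 42.8, 15.7 and 33.8 with vehicle and 15.0, 8.75 and 8.72 with MS023 (-1.36 ± 0.42, adjusted p = 0.034), a call lost without vehicle replicate 1 or 3 or MS023 replicate 2 or 3 (-1.07 to -1.24, adjusted p = 0.10 to 0.11), with no filter on low values (-1.36, adjusted p = 0.062) and in the fit blocked on replicate number (-1.36, adjusted p = 0.057). In all, 2 of 10 integrin chains rose in the knockdown, 3 of 17 rose and 3 fell with MS023, and 1 of 17 rose with GSK3368715. The shares of all genes called were 14.7%, 27.9% and 9.64%.

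**Figure D5:**
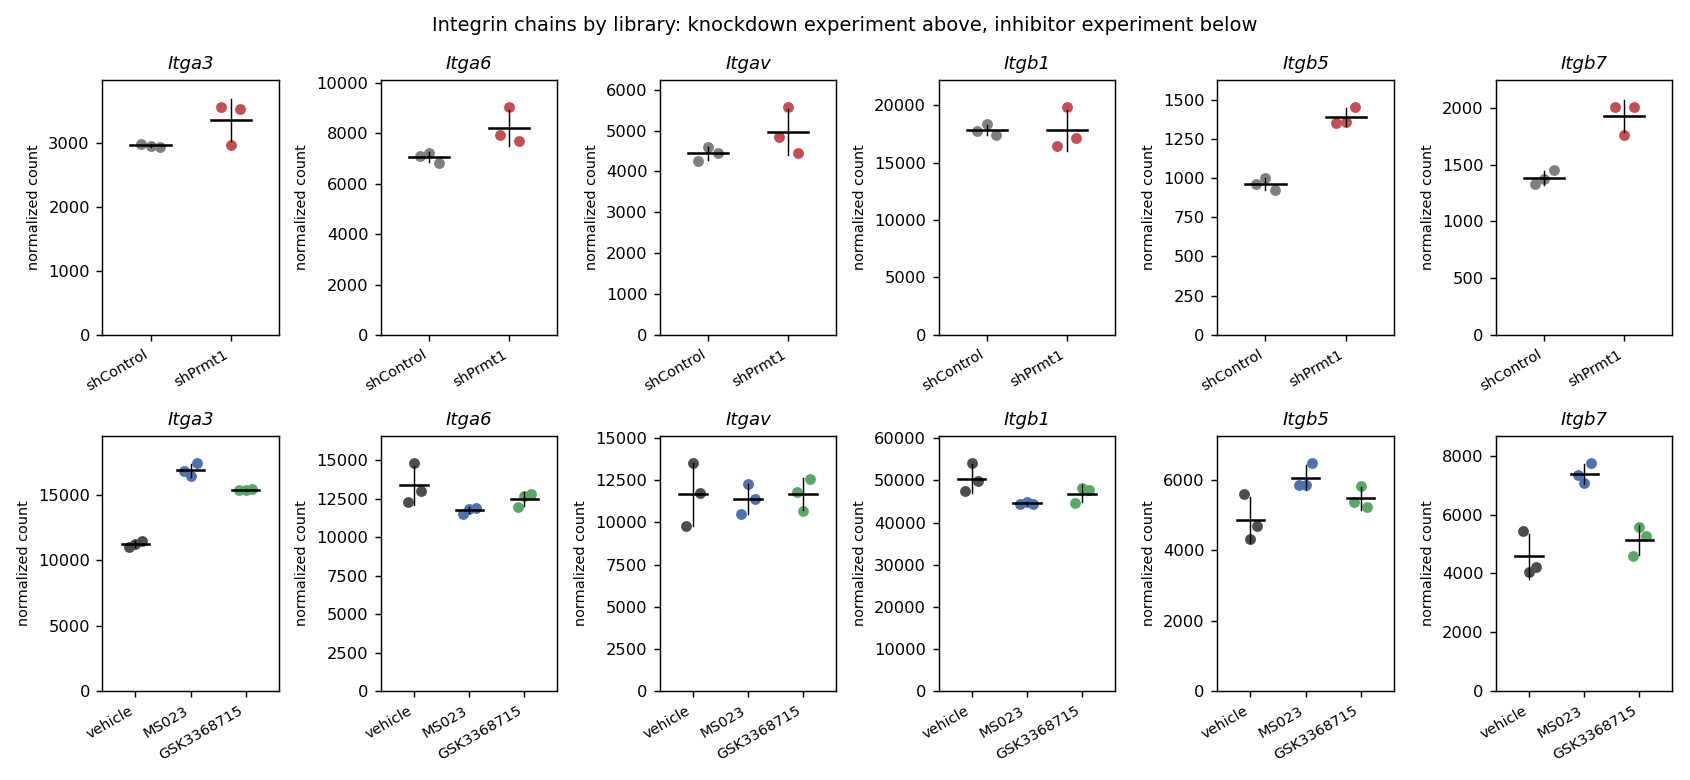
Normalized counts by library for the integrin chains Itga3, Itga6, Itgav, Itgb1, Itgb5 and Itgb7, with the knockdown experiment in the upper row and the inhibitor experiment in the lower row. Points are libraries, horizontal bars are means, vertical bars are SD (n = 3) and axes start at 0. Itga3 separates both inhibitors from vehicle, and Itgb7 separates shPrmt1 from shControl and MS023 from vehicle.

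The 2 compounds were compared directly at the same dose and time, over 54 members and with adjustment over all 13014 genes tested. No member was called between GSK3368715 and MS023 by limma or by edgeR, against 0.515% of all genes by limma (0.315% higher and 0.2% lower) and 0.53% by edgeR. At an unadjusted p under 0.05 there were 10 of the 54 members, against 13.2% of all genes, and DESeq2, which called 2.8% of all genes, called 3 members, Itgb7 (-0.52, adjusted p = 0.00052), Col1a1 (0.40, adjusted p = 0.0067) and Col8a1 (0.24, adjusted p = 0.0081). In limma these gave -0.52 ± 0.11, 0.41 ± 0.10 and 0.24 ± 0.06 (adjusted p = 0.071, 0.11 and 0.10), with no overlap between the compounds, as for 21.4% of all genes. Itgb7 was also called by limma when only the libraries of the 2 compounds were fitted (-0.52, adjusted p = 0.023) and without vehicle replicate 1 or 2 (adjusted p = 0.017 and 0.041).

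For members called with both compounds the difference between GSK3368715 and MS023 was 0.06 for Thbs1 (95% interval -0.08 to 0.21), -0.14 for Col6a1 (-0.31 to 0.03), -0.13 for Itga3 (-0.23 to -0.04) and -0.17 for Lama2 (-0.32 to -0.02). The intervals of Itga3 and Lama2 lie below 0, with MS023 higher in every library, although neither passed the adjusted test. A p that misses the threshold does not show that the compounds act alike on these genes.

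Other genes of matrix biology were read from lists of the same pathway. For comparison, 14.7% of all genes tested were called in the knockdown, 27.9% with MS023 and 9.64% with GSK3368715. Among the enzymes of collagen synthesis and processing none of 20 rose and 5 fell in the knockdown (median -0.08, all genes 0.00). They were the prolyl hydroxylases P4ha1, P4ha2 and P3h3, the lysyl hydroxylase Plod2 and the prolyl isomerase Ppib. P4ha2 went from 822, 892 and 777 to 597, 539 and 605 (-0.52 ± 0.09, adjusted p = 0.0065) and Plod2 from 1601, 1693 and 1560.1 to 1085, 1349 and 1088 (-0.47 ± 0.10, adjusted p = 0.015). No shPrmt1 library overlapped with a shControl library for these enzymes.

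With MS023, 4 of 22 such genes rose and 5 fell (median -0.05), and with GSK3368715 2 rose and 2 fell (median -0.05). Adamts14, which trims the amino-terminal end of procollagen, was at 590.3, 579 and 619 with vehicle, 256, 271 and 275 with MS023 and 348, 349 and 421 with GSK3368715. It fell with both compounds (-1.15 ± 0.10 and -0.68 ± 0.10, adjusted p = 4.9e-05 and 0.0029). P3h3 also fell with both (-0.52 ± 0.09 and -0.34 ± 0.09), and the lysyl oxidase Loxl3 rose (0.38 ± 0.09 and 0.42 ± 0.09).

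Of the matrix proteases and their inhibitors, 4 of 16 rose and 2 fell in the knockdown (median 0.13), 2 of 20 rose and 6 fell with MS023 (median 0.04) and 1 rose and 3 fell with GSK3368715 (median 0.01). Plat, tissue plasminogen activator, rose in the knockdown from 48.4, 59.0 and 42.0 to 170.3, 176 and 144 (1.70 ± 0.17, adjusted p = 0.00059), and so did the metalloproteases Mmp19 (1.13 ± 0.16) and Mmp11 (1.07 ± 0.19). Timp1, an inhibitor of metalloproteases, fell in all 3 comparisons (-0.39 ± 0.10, -0.68 ± 0.07 and -0.34 ± 0.07), as Timp2 rose in all 3 (0.54 ± 0.06, 0.24 ± 0.05 and 0.17 ± 0.05). The urokinase receptor Plaur fell with both inhibitors (-0.55 ± 0.08 and -0.38 ± 0.08).

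Of the other matrix proteins, 9 of 20 rose and 2 fell in the knockdown (median 0.42, all genes 0.00). Fstl1, a secreted glycoprotein related to SPARC, went from 127, 166 and 115 to 264, 244 and 241 (0.89 ± 0.15, adjusted p = 0.0064) and the fibulin Fbln2 from 2349.8, 2272 and 2476 to 4749.7, 3913 and 4323 (0.87 ± 0.08, adjusted p = 0.00042). Thbs2, the paralogue of Thbs1, fell from 674, 723 and 703 to 378, 433 and 387 (-0.81 ± 0.09, adjusted p = 0.00079) and also fell with MS023 (-0.37 ± 0.09, adjusted p = 0.011), the reverse of Thbs1.

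With MS023, 6 of 25 other matrix proteins rose and 3 fell (median 0.17), and with GSK3368715 2 rose and 1 fell (median 0.12). Emilin1, an elastic-fibre glycoprotein, rose in all 3 comparisons (0.42 ± 0.11, 0.81 ± 0.07 and 0.56 ± 0.07), as did agrin, Agrn (0.43 ± 0.08, 0.31 ± 0.06 and 0.30 ± 0.06). Ccn1, a matricellular protein that binds integrins, was at 9415, 9595 and 8802 with vehicle, 6103, 5896 and 5971 with MS023 and 7255, 7788 and 7192 with GSK3368715. It fell with both inhibitors (-0.63 ± 0.05 and -0.32 ± 0.05), rose in the knockdown (0.32 ± 0.06, adjusted p = 0.011) and was the only gene of the 6 pathway lists called between the compounds (0.31 ± 0.05, adjusted p = 0.037).

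Genes of focal adhesion and integrin activation couple integrins to actin. In the knockdown 3 of 35 rose and 1 fell (median -0.04), with MS023 3 of 36 rose and 3 fell (median -0.06), and with GSK3368715 2 of 36 rose (median -0.02). The shares called were 11.4%, 16.7% and 5.56%, below those of all genes (14.7%, 27.9% and 9.64%). Lims2, an adaptor of the integrin-linked kinase complex, rose in the knockdown from 37.0, 31.7 and 38.7 to 111, 103 and 117 (1.60 ± 0.16, adjusted p = 0.00061) together with its paralogue Lims1 (0.55 ± 0.12, adjusted p = 0.021). Tns1, a tensin, and Nedd9, a docking protein, rose with both inhibitors (0.25 ± 0.07 and 0.33 ± 0.07 for Tns1, 0.33 ± 0.09 and 0.42 ± 0.09 for Nedd9).

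Of 12 other matrix receptors 2 rose and 1 fell in the knockdown (median -0.08), namely the syndecan Sdc2 (0.45 ± 0.08), the thrombospondin receptor Cd47 (0.38 ± 0.06) and the tetraspanin Cd9 (-0.26 ± 0.07). With MS023 1 rose and 3 fell (median -0.02), among them the hyaluronan receptor Cd44 (-0.39 ± 0.08, adjusted p = 0.0059). With GSK3368715 none of the 12 was called by limma or edgeR (median 0.03). There 3 had an unadjusted p under 0.05, against 26.1% of all genes tested. DESeq2 called 1, Cd44, against 13.8% of all genes.

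In the list of TGF-beta ligands, receptors, SMADs and latency proteins, a pathway known to drive collagen expression, 1 of 17 genes rose and 3 fell in the knockdown (median 0.06). The ligands Tgfb1 and Tgfb3 fell (-0.37 ± 0.10 and -0.41 ± 0.10) and the inhibitory Smad7 rose (0.43 ± 0.08). With MS023 2 of 18 rose and 4 fell (median -0.02) and with GSK3368715 2 rose and 2 fell (median -0.02). The latency protein Ltbp4 was at 5838, 4687 and 5427 with vehicle, 2884, 3254 and 3231 with MS023 and 4249.7, 3887 and 4397 with GSK3368715, lower with both compounds (-0.76 ± 0.09 and -0.34 ± 0.09, adjusted p = 0.0002 and 0.032).

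Some members lie within 200 kb of each other in the genome (positions from GENCODE on GRCm38). Col1a1 and Itga3 are 91.4 kb apart on chromosome 11, and with MS023 Col1a1 fell as Itga3 rose. In the knockdown both fold changes were positive (0.97 and 0.18), and only Col1a1 was called. Col6a1 and Col6a2 are 85.2 kb apart on chromosome 10, and Col6a2 was nearly absent. Across the members tested, Spearman's rho between genomic span and log2 fold change was -0.11 over 40 genes in the knockdown, 0.01 over 54 genes with MS023 and 0.02 with GSK3368715. Over all genes with a known span it was 0.15 over 11474 genes, -0.02 over 12996 and 0.0042 over 12996, in the same order. These values are a description across genes that share libraries.

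Some markers of other cell states were called beside these changes. Pdgfrb, a receptor of mesenchymal cells, rose in all 3 comparisons (0.69 ± 0.09, 0.40 ± 0.11 and 0.64 ± 0.11). Krt18 fell in the knockdown (-0.41 ± 0.10) and rose with both inhibitors (0.55 ± 0.08 and 0.27 ± 0.08). Krt8, at low means of 7.43 with vehicle and 24.0 with MS023, rose with MS023 (1.83 ± 0.56, adjusted p = 0.033). S100a4 fell in the knockdown and with MS023 (-0.30 ± 0.05 and -0.29 ± 0.06). Summed over the 14 fibroblast and mesenchymal markers, libraries held 92501 to 93675 normalized counts in shControl and 80458 to 92304 in shPrmt1. The sums were 245371 to 268765 with vehicle, 249608 to 256241 with MS023 and 249059 to 265944 with GSK3368715. Most of each sum was Vim and S100a4, at means of 68130 and 19855 in shControl and 196573 and 46619 in vehicle libraries. It therefore says little about the other markers of the list. The part of the cell state markers in the results was not tested. In bulk libraries a change in the share of cells that make a transcript and a change in the amount per cell cannot be told apart.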

How the data were processed

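RNA of CT26 cells was sequenced after poly(A) selection in 15 libraries (3 per group). Per the labels and the study's methods, the authors quantified reads with Salmon 1.4.0 on mm10 and deposited normalized counts (the signal used here) scaled with DESeq2 size factors, in 1 table per experiment. The strand setting and the DESeq2 version are not given in the sources used here. Tables of the authors' own fold changes and p-values were not used. All values were whole reads within 0.01 of a read after dividing by the size of 1 read, which gave the depths and the counts for edgeR 4.0.16 and DESeq2 1.42.0 as alternatives.

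The main test was limma 3.58.1 (R 4.3.3) with a mean-variance trend on log2(normalized count + 1), over genes that reached 10 normalized counts in 3 or more libraries, with Benjamini-Hochberg adjustment over all genes and calls at 0.05. The knockdown fit held 6 libraries and the inhibitor fit 9. Scripts were tested on simulated data. Alternatives were other pseudocounts, filters, scalings, models and each library left out.

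Named genes were, in each comparison, the 10 members called with the largest increases and decreases and a mean of at least 50 normalized counts, those called alike in all 3 or in opposite directions, any called between the compounds, Fn1, Sparc, Lox, Loxl2 and Thbs1, the 2 highest members of each class, partner chains, up to 3 called genes of each pathway list per comparison, and Prmt1. Others named were chosen after their values were seen. The members and lists were chosen with earlier results of these data known. The results of 1 member are not reported here, although it stays in the counts.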

Additional observations from a re-analysis of the deposited data

Results flagged for a closer look

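In 5 of the 40 members tested in both experiments every shPrmt1 library lay on one side of the shControl libraries and every MS023 library on the other side of the vehicle libraries, as in 2.8% of the 11471 genes tested in both. The log2 fold changes in the knockdown and with MS023 were 0.97 and -0.52 for Col1a1, 0.54 and -0.16 for Sparc, 0.17 and -0.32 for Col8a1, 0.22 and -0.18 for Itga6, and -0.44 and 0.86 for Col7a1. By limma both values passed the test for Col1a1 and Sparc, the MS023 value alone for Col8a1, and neither for Itga6 and Col7a1. DESeq2 also called Itga6 in both, at 0.22 and -0.19 (adjusted p = 0.043 and 0.038), and Col8a1 in the knockdown (0.18, adjusted p = 0.048). The difference between the knockdown and MS023 was not tested, since the experiments were normalized separately and differ in agent, duration and depth, which cannot be told apart.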

How the results depend on the processing

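Counts of members called in the knockdown (12) were 1 when a log2 change of 1 or more in size was also required and 7 to 18 with a library left out, 7 without shControl replicate 1 or 2 and 18 without shPrmt1 replicate 2. With MS023 (16) they were 2 with that fold requirement, 10 with no filter on low values and 9 to 19 with a library left out, 10 without vehicle replicate 3 or MS023 replicate 3 and 9 without MS023 replicate 2. With MS023 the split of 8 higher and 8 lower became 11 and 5 with equal library totals and 8 and 5 with an equal upper quartile. With GSK3368715 (5) they were 0 with the fold requirement, 9 by DESeq2, 3 with only the 2 groups fitted and 3 to 6 with a library left out. Between the compounds (0) they were 3 by DESeq2, 1 with only the 2 groups fitted and 0 to 1 with a library left out. The cause was not tested. Of 2546 alternative values for 137 fold changes of named genes, 2276 kept their direction and side of the threshold, 210 lost the call, 28 gained it and 32 changed sign.

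None of the values that changed sign had been called. They were Itgb1 (shPrmt1 against shControl) at 0.0261 with equal library totals, Itgb1 (shPrmt1 against shControl) at 0.00048 by DESeq2, Itgav (MS023 against vehicle) at 0.00958 with equal library totals, Fn1 (GSK3368715 against vehicle) at 0.00012 with an equal upper quartile, Fn1 (GSK3368715 against vehicle) at 0.00356 with equal library totals, Prmt1 (GSK3368715 against vehicle) at 0.00248 with equal library totals. With a library left out, values for shPrmt1 against shControl ran from -0.0858 to 0.0484 for Itgb1. With a library left out, values for MS023 against vehicle ran from -0.124 to 0.0053 for Col4a1, -0.316 to 0.26 for Col6a2, -0.0606 to 0.45 for Itga2, -0.0344 to 0.0613 for Itga5, -0.147 to 0.0857 for Itgav, -0.0295 to 0.101 for Lama3. With a library left out, values for GSK3368715 against vehicle ran from -0.234 to 0.342 for Col6a2, -0.111 to 0.0758 for Fn1, -0.112 to 0.121 for Itgav, -0.0835 to 0.069 for Lama3, -0.195 to 0.0166 for Lamc1, -0.0388 to 0.0315 for Prmt1, -0.0555 to 0.0037 for Sparc.

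Equal replicate numbers were not used to pair the samples in the main fit. Deviations of same-numbered libraries correlated at 0.06 to 0.12 in the knockdown and -0.10 to 0.11 in the inhibitor experiment. Those of libraries with different numbers correlated at -0.09 to 0.03 and at -0.13 to 0.17. With the replicate number as a block 14, 16, 5 and 0 members were called in the 4 comparisons. Every knockdown library correlated best with its own number, a hint from the data only.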
